A study of Mus musculus with 4 samples.

Results

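The BMP response genes are 8 genes that cells switch on when bone morphogenetic protein (BMP) signals reach them: Id1, Id2, Id3, Id4, Msx1, Msx2, Smad6 and Smad7. They were chosen by name, and all 8 are among the 28692 genes listed in the count matrices. Their levels were compared in stromal cells of the E12.5 mouse intestine, profiled by droplet single-cell RNA sequencing in 4 libraries. The titles and protocols give this age, whereas the tissue and description labels name the lamina propria and adult stroma. Libraries LI replicate 1 and LI replicate 2 came from the large intestine with the cecum, and SI replicate 1 and SI replicate 2 from the small intestine. All 4 came from untreated embryos labelled EYFP (C57BL/6), sired by males that carry yellow fluorescent protein (YFP), with several embryos in each experiment. Every library was sorted for live, YFP+ and Itgb1+ cells that lacked CD45, Ter119, CD31 and EpCAM, so leukocytes, erythroid cells, endothelium and epithelium should have been depleted. The EYFP mice came from a Rosa26 reporter line crossed to a Cre line that the methods do not name. The labels do not tie a library to its experiment or embryos, so p-values measure the spread between these libraries, which may be technical.

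BMP ligands bind pairs of type I and type II receptors on the cell surface, and the receptors phosphorylate Smad1, Smad5 and Smad9, which join Smad4 and bind DNA in the nucleus. Id genes are among the most direct targets, and their proteins bind E proteins such as Tcf3, Tcf4 and Tcf12 and keep them from pairing with tissue-specific basic helix-loop-helix factors such as Twist1 and Hand2. Smad6 and Smad7 encode inhibitory Smads that switch the pathway off again, and Msx1 and Msx2 encode homeodomain factors. In the embryonic gut BMP signals take part in the patterning of mesenchyme and smooth muscle and in the differentiation of enteric neurons. The genes are not specific readouts: Smad7 also answers to TGF-beta, and Id genes to growth factors and cell cycle entry.

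The libraries held 5151 to 6881 cell barcodes and 31630548 to 62886525 unique molecular identifiers (UMIs, which count captured transcripts), and 22094 cells were kept. LI replicate 1 stood apart by its depth, where the median kept cell had 4220.5 UMIs against 8382 to 8829 in the other 3 libraries. Pairs of libraries shared 8 to 15 barcodes, at most 0.221% of the smaller library. Clusters with at least 3 markers of 1 class among their 10 leading genes gave 1314 mesothelial cells, 1246 neural cells (clusters 7 and 9) and 4826 smooth muscle cells, and 3 clusters with mesenchyme markers and no marker of another class gave 9931 cells of other mesenchyme. The summed markers of each class, in CPM (a gene's UMIs in a group of cells of 1 library, scaled to a common total of UMIs), were set against the names: the 15 mesothelial markers reached 2308 to 2721 CPM in mesothelial cells and at most 157 elsewhere, and the 15 neural markers 4060 to 5512 CPM in neural cells and at most 137 elsewhere. The 12 smooth muscle markers lay between 1963 and 11940 CPM in smooth muscle cells, and between 867 and 2246 CPM in other mesenchyme, so the 2 ranges overlapped. The 8 mesenchyme markers did not set other mesenchyme apart, with 1205 to 2031 CPM there, 1562 to 3681 CPM in mesothelial cells and 1294 to 2418 CPM in smooth muscle cells, and 3895 of the 9931 cells of other mesenchyme were smooth muscle by the count of markers per cell. Of cells that the sort should have removed, the 12 endothelial markers summed to 40.4 to 79.0 CPM over the 4 groups, the 9 immune markers to 1.67 to 23.7 CPM, highest in neural cells, and the 10 erythroid markers to at most 8.28 CPM. Of their defining genes Ptprc (leukocytes) was at 0 in all 4 groups, Pecam1 (endothelium) at most 2.17 CPM and Hbb-bs (erythroid cells) at most 0.434 CPM. Epcam lay between 1.26 and 41.0 CPM and was highest in mesothelial cells. Clusters 3, 5, 6 and 10, with 17.9 to 24.7% of a library's kept cells, held a marker of another class among their leading genes and stayed unnamed and outside the 4 groups.

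On the mouse assembly GRCm38 (GENCODE release M21), Id1 (ENSMUSG00000042745) lies on chromosome 2 at chr2:152736251-152737410 and Id2 (ENSMUSG00000020644) at chr12:25093799-25097140. Id3 (ENSMUSG00000007872) lies at chr4:136143497-136145755 and Smad6 (ENSMUSG00000036867) at chr9:63953076-64022059. Id4 (ENSMUSG00000021379), at chr13:48261228-48266026, shares exon bases with A330033J07Rik on the opposite strand, and since the sources used here do not state that counting used strand, reads of these 2 genes may not be told apart. Msx1 (ENSMUSG00000048450) lies at chr5:37820485-37824583 and Msx2 (ENSMUSG00000021469) at chr13:53466884-53473074. Smad7 carries the identifier ENSMUSG00000025880. No exon of the other 7 genes shares bases with another annotated gene.

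Id2, Id3 and Id4 stand for 3 different patterns across the cell groups, and their proximal promoters are shown for comparison, from 250 bases before to 50 bases after the RefSeq start site (GRCm38.p6), 5′ to 3′ on the gene's strand. Capitals mark 2 motifs linked to Smad binding, searched on both strands: GGCGCC, a GC-rich element of BMP-responsive promoters, and GTCT with its reverse complement AGAC, the Smad box. The windows are chr12:25096043-25096342 on the minus strand for Id2, chr4:136143572-136143871 on the plus strand for Id3 and chr13:48260866-48261165 on the plus strand for Id4.
Id2: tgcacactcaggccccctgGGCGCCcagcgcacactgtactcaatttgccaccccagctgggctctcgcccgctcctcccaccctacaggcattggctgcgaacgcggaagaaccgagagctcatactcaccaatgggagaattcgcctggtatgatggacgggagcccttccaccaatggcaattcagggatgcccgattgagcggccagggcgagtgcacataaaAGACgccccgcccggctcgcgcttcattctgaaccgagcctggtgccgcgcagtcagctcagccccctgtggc
Id3: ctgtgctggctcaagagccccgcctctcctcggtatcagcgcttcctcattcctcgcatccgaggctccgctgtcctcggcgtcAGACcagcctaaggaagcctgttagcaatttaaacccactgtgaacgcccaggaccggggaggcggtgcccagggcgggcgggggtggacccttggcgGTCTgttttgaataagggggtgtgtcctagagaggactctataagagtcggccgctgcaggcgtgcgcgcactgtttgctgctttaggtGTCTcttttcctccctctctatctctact
Id4: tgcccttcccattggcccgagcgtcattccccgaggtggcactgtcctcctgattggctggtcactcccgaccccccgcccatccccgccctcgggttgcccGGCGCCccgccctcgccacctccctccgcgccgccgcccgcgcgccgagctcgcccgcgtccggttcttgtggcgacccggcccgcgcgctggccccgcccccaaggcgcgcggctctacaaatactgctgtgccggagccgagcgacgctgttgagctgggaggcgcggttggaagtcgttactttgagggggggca
The Id2 window held 1 GGCGCC, its first base at -231 from the start site, and 1 Smad box. The Id3 window held 3 Smad boxes and 0 GGCGCC, and the Id4 window held 1 GGCGCC, at -148, and 0 Smad boxes. Of 32851 RefSeq promoter windows of the same length, 11.9% held GGCGCC and 88.0% held a Smad box.

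Id1, Id2, Smad6 and Smad7 were far lower in neural cells than in other mesenchyme, whereas Id4 was higher there. Smad7, the inhibitory Smad, measured 204 and 251 CPM in other mesenchyme of the first and second LI library and 265 and 288 CPM in that of the first and second SI library, an order kept throughout. In neural cells it measured 22.4 and 45.8 CPM in LI and 50.6 and 44.1 CPM in SI. A level in summed cells cannot tell fewer cells with a transcript from less RNA in each cell. Every neural value of Smad7 lay below every value of other mesenchyme, and the fitted difference was -2.61 ± 0.12 on the log2 scale (SE, 4 libraries, 6.12-fold lower, adjusted p = 5.6e-06, edgeR quasi-likelihood test with library as a block). Smad6, the inhibitory Smad that acts mainly on BMP receptors, gave 0 and 6 UMIs in neural cells of LI and 17 and 7 UMIs in those of SI, or 0 to 3.69 CPM, against 7.43 to 16.1 CPM in other mesenchyme. It was 8.74-fold lower in neural cells (log2 difference -3.13 ± 0.40, adjusted p = 0.000641; -3.85 without SI replicate 1), and the groups did not overlap.

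Id1 measured 263 and 296 CPM in neural cells of LI and 641 and 502 CPM in those of SI, against 996 and 1168 CPM in LI and 1214 and 1103 CPM in SI for other mesenchyme. All neural values were below all values of other mesenchyme, by 2.72-fold in the fit (log2 difference -1.44 ± 0.16, adjusted p = 0.000355). Id2 measured 87.4 and 165 CPM in neural cells of LI and 345 and 349 CPM in those of SI, against 591, 624, 807 and 572 CPM in other mesenchyme of the 4 libraries in the same order. The neural values again lay below, by 2.99-fold (log2 difference -1.58 ± 0.26, adjusted p = 0.00225). Id4 went the other way, with 54.9 and 107 CPM in neural cells of LI and 53.0 and 43.3 CPM in those of SI, against 14.4, 23.1, 29.4 and 26.1 CPM in other mesenchyme. It was 2.75-fold higher in neural cells (log2 difference 1.46 ± 0.30, adjusted p = 0.00586), with all neural values above.

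Id3 of neural cells did not pass the test against other mesenchyme. It measured 574 and 965 CPM in neural cells of LI against 711 and 1186 CPM in other mesenchyme of the same libraries, and 1541 and 1748 CPM in neural cells of SI against 1177 and 1143 CPM. Neural cells were thus below other mesenchyme in each LI library and above it in each SI library, and the fit over all 4 gave 0.14 ± 0.14 (adjusted p = 0.431). Of the 7 members tested, 6 were called in neural cells, 1 higher and 5 lower; over all 13292 genes tested the same test called 49.2%, with 23.7% higher and 25.6% lower. The median log2 difference of the 7 members was -1.58, and that of all genes -0.028. The Msx1 difference (-2.11 ± 0.61, adjusted p = 0.0243) rested on 5, 1, 3 and 2 UMIs in neural cells. It was -3.00 without LI replicate 1, and it lost its call without LI replicate 2 (adjusted p = 0.0878), without SI replicate 1 (0.111), without SI replicate 2 (0.0776) and with G1 cells alone (0.165).

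**Figure D1:**
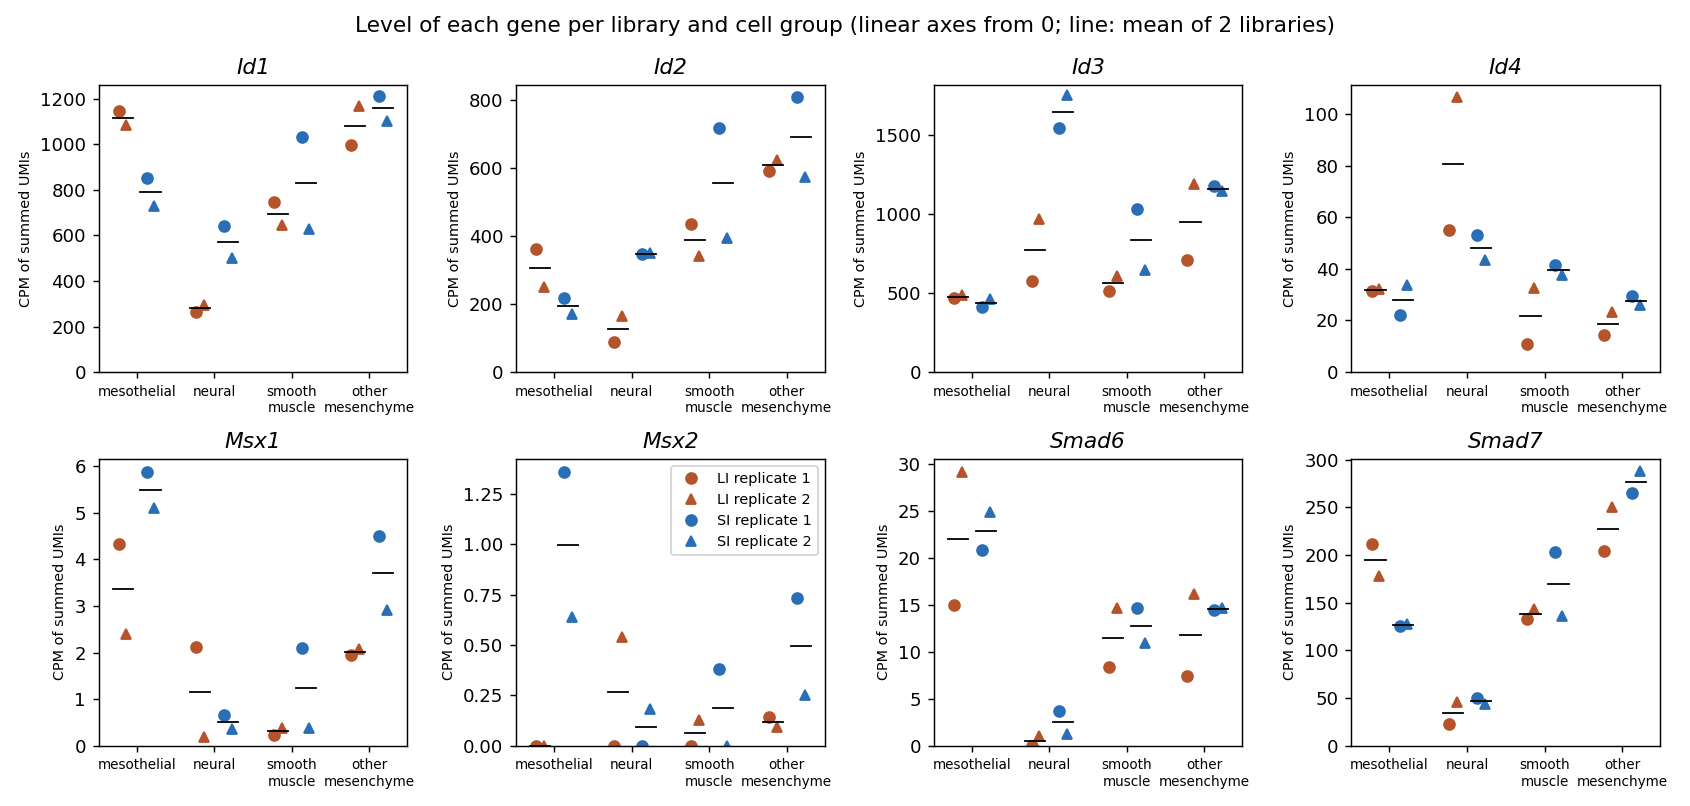
Level of each BMP response gene in CPM of the summed UMIs (linear vertical axes from 0) in mesothelial cells, neural cells, smooth muscle cells and other mesenchyme, with a point per library, LI in brown and SI in blue, and a line at the mean of 2 libraries. Smad6 and Smad7 were lowest in neural cells in every library, and Id3 of neural cells was higher in both SI libraries (1541 and 1748 CPM) than in both LI libraries (574 and 965 CPM).

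In mesothelial cells, which cover the outer surface of the gut, Id2, Id3 and Smad7 were lower than in other mesenchyme and Smad6 was higher. Id3 measured 467, 488, 412 and 463 CPM in mesothelial cells of both LI and then both SI libraries, a narrow range that lay below every value of other mesenchyme, and was 2.26-fold lower (log2 difference -1.18 ± 0.14, adjusted p = 0.000254). Id2 measured 362, 251, 218 and 171 CPM in the same order and was 2.64-fold lower (-1.40 ± 0.18, adjusted p = 0.000393), again without overlap. Smad6 measured 15, 29.1, 20.8 and 24.9 CPM and was higher than other mesenchyme of the same library in each of the 4 libraries, by 1.72-fold in the fit (0.78 ± 0.14, adjusted p = 0.00245). Smad7 measured 212, 178, 125 and 127 CPM, and its difference was -0.66 ± 0.20 (adjusted p = 0.026). That call was lost without LI replicate 2 (adjusted p = 0.0573), without SI replicate 1 (0.128) and without SI replicate 2 (0.0804), and in LI replicate 1 the mesothelial value was the higher.

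Id1 of mesothelial cells, at 1149 and 1086 CPM in LI and 855 and 731 CPM in SI, did not pass the test against other mesenchyme (-0.25 ± 0.14, adjusted p = 0.186). Id4, at 31.3, 32.3, 22.2 and 33.8 CPM, and Msx1, at 4.33, 2.39, 5.88 and 5.10 CPM, did not pass it either (0.41 ± 0.22, adjusted p = 0.167, and 0.64 ± 0.29, adjusted p = 0.112). In all, 4 of 7 members tested were called, 1 higher and 3 lower, where the test called 37.5% of 13144 genes, 18.7% higher and 18.8% lower. The median of the 7 was -0.25, beside -0.047 for all genes.

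In smooth muscle cells Id1, Id2, Id3, Smad7 and Msx1 were lower than in other mesenchyme. Id1 measured 748, 644, 1032 and 628 CPM in smooth muscle cells of both LI and then both SI libraries, and was below other mesenchyme of the same library in all 4 (-0.54 ± 0.088, 1.45-fold lower, adjusted p = 0.00541). Id2 measured 434, 342, 717 and 393 CPM and was likewise lower in all 4 (-0.46 ± 0.085, adjusted p = 0.00871), as was Id3 with 513, 607, 1029 and 642 CPM (-0.58 ± 0.10, adjusted p = 0.00749). Smad7, at 133, 143, 203 and 136 CPM, was 1.61-fold lower (-0.69 ± 0.090, adjusted p = 0.00205). Over the 4 libraries the ranges of the Id genes overlapped, and the difference shows within each library, which the block takes up. Where cell groups were set by the number of distinct markers per cell in place of clusters, Id1 and Id3 lost their calls (-0.26 and -0.34, adjusted p = 0.0867 and 0.0627).

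Smad6 of smooth muscle cells measured 8.33, 14.7, 14.6 and 10.96 CPM against 7.43, 16.1, 14.4 and 14.7 CPM in other mesenchyme and did not pass the test (-0.090 ± 0.10, adjusted p = 0.591). Id4, at 10.9, 32.6, 41.6 and 37.6 CPM, was called higher (0.43 ± 0.13, adjusted p = 0.0476), a call lost with DESeq2 (adjusted p = 0.16), with doublets kept (0.0517), with clusters 3, 5 and 6 added to other mesenchyme (0.215), and without LI replicate 2 (0.186), SI replicate 1 (0.205) or SI replicate 2 (0.136). Msx1 was lower (-1.90 ± 0.34, adjusted p = 0.008) on 1, 3, 22 and 6 UMIs in smooth muscle cells, against 27, 44, 92 and 58 UMIs in other mesenchyme, and was -2.71 without SI replicate 1. Of 7 members tested 6 were called, 1 higher and 5 lower, beside 19% of 13424 genes, 9.1% higher and 9.92% lower. Their median was -0.54, beside 0.013 for all genes.

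**Figure D2:**
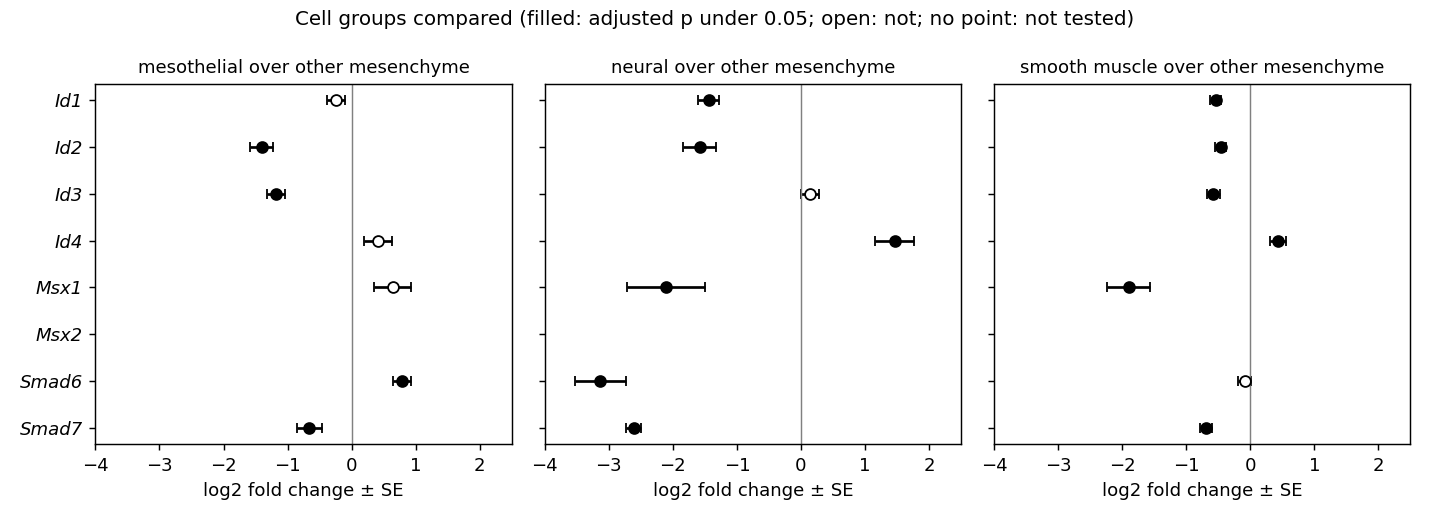
Log2 fold change of each BMP response gene in mesothelial, neural and smooth muscle cells over other mesenchyme (horizontal axis, bars: SE, 4 libraries with library as a block), filled where the adjusted p was under 0.05. Smad7 lay left of 0 in all 3 panels, at -0.66, -2.61 and -0.69, and Smad6 lay on opposite sides in mesothelial (0.78) and neural cells (-3.13). Msx2 was not tested.

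Msx2 was near the limit of detection, with 4 UMIs in mesothelial cells, 4 in neural cells, 5 in smooth muscle cells and 24 in other mesenchyme over the 4 libraries, and it passed the filter on low counts in none of the comparisons. No fold is given for it, since many of its sums are at or under 3 UMIs, which is what a count of 0 allows. Within other mesenchyme 13 of its 24 UMIs came from cluster 8, a cluster of 432 cells led by Foxd1 that was chosen here after its values were seen. There Msx2 gave 9 UMIs in 21 cells of SI replicate 1 and 4 UMIs in 120 cells of SI replicate 2, and 0 UMIs in 125 and 166 cells of LI replicates 1 and 2. Msx1 measured 1.95 and 2.07 CPM in other mesenchyme of LI and 4.50 and 2.92 CPM in that of SI, and lay between 0.18 and 5.88 CPM over all groups and libraries.

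To see whether the response genes differ along the gut, SI was compared with LI within each cell group, with 2 libraries each, where an exact permutation test of a single value cannot pass 0.05. No member passed the adjusted threshold of edgeR's quasi-likelihood test in any of the 4 groups. In neural cells 0 of 5 members tested were called, where the test called 0.31% of 11283 genes (0.106% higher and 0.204% lower in SI). Of the 5, 4 had an unadjusted p under 0.05, as had 8.3% of all genes tested, and DESeq2 called 3, beside 0.904% of all genes. Id2 was higher in SI by 1.39 ± 0.26 (adjusted p = 0.0712), Id1 by 0.97 ± 0.20 (adjusted p = 0.0935) and Id3 by 1.04 ± 0.23 (adjusted p = 0.12), and none of the 3 overlapped between regions. Id4 went the other way (-0.82 ± 0.28, adjusted p = 0.396), also without overlap, and Smad7 overlapped (0.37 ± 0.28, adjusted p = 0.793). Groups without overlap were common at this size, 38.9% of all genes tested in neural cells. The calls came and went with the setting. Id4 was called without the filter on low counts (adjusted p = 0.0213) and without LI replicate 1 (-1.17, adjusted p = 1.53e-06), and Smad7 without LI replicate 2 (0.96, adjusted p = 0.00727). Id1, Id2 and Id3 were called by DESeq2 (adjusted p = 0.0071, 0.000187 and 0.00652) and without the filter on low counts, and also without LI replicate 1 and without LI replicate 2.

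In mesothelial cells 0 of 7 members tested were called in SI against LI, beside 0.958% of 10644 genes (0.432% higher and 0.526% lower in SI). Of the 7, 3 had an unadjusted p under 0.05, as had 10.8% of all genes tested, and DESeq2 called 0, beside 1.05% of all genes. In those 3 LI was the higher: Id1 by -0.44 ± 0.18 (adjusted p = 0.396), Id2 by -0.60 ± 0.23 (0.364) and Smad7 by -0.57 ± 0.20 (0.296), each with both LI libraries above both SI libraries. Id3 did not overlap either (-0.069 ± 0.18, adjusted p = 0.945), and Msx1 separated the other way, with both SI libraries above (0.74 ± 0.53, adjusted p = 0.695). These 5 of 7 members without overlap stand beside 41.7% of all genes tested. Id2 and Smad7 were called without LI replicate 2 (adjusted p = 0.00723 and 0.023).

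In smooth muscle cells 0 of 6 members tested were called, beside 1.48% of 12214 genes (0.434% higher and 1.05% lower in SI), with 3 at an unadjusted p under 0.05 (12.2% of all genes) and 0 called by DESeq2 (2.42% of all genes). Id3 (0.72 ± 0.24, adjusted p = 0.261) and Id4 (0.97 ± 0.40, adjusted p = 0.381) were higher in both SI libraries than in both LI libraries, and the other members tested overlapped, where 46.6% of all genes did not. The Id4 value ranged from 0.42 without LI replicate 1 to 2.00 without LI replicate 2, where it was called (adjusted p = 0.00141). The LI libraries measured 10.9 and 32.6 CPM. The 12 smooth muscle markers also moved with region, at 1963 and 6668 CPM in smooth muscle cells of LI and 5602 and 11943 CPM in those of SI. Myh11, the smooth muscle myosin, was found in 2.35 and 31.1% of LI cells and 24.7 and 66.9% of SI cells after thinning to 3000 UMIs. Their part in the result was not tested. In other mesenchyme 0 of 7 were called, beside 3.68% of 13567 genes (1.16% higher and 2.52% lower in SI), with 3 at an unadjusted p under 0.05 (17.9% of all genes) and 0 called by DESeq2 (4.78% of all genes). Id4, Msx1 and Smad7 were higher in both SI libraries than in both LI libraries, beside 52.6% of all genes without overlap. All 7 fitted values were above 0, from 0.26 ± 0.18 for Id1 to 1.04 ± 0.34 for Msx1 (adjusted p = 0.49 and 0.156). The smooth muscle markers moved with region here too, at 867 and 1276 CPM in LI and 1587 and 2246 CPM in SI, and Myh11 was found in 0.391 and 2.25% of LI cells and 5.25 and 10.4% of SI cells after the same thinning. Their part in the result was not tested. Id3, Id4 and Smad6 were called there without LI replicate 2 (adjusted p = 0.00413, 0.000899 and 0.00298), which left the shallow LI replicate 1 as the sole LI library.

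**Figure D3:**
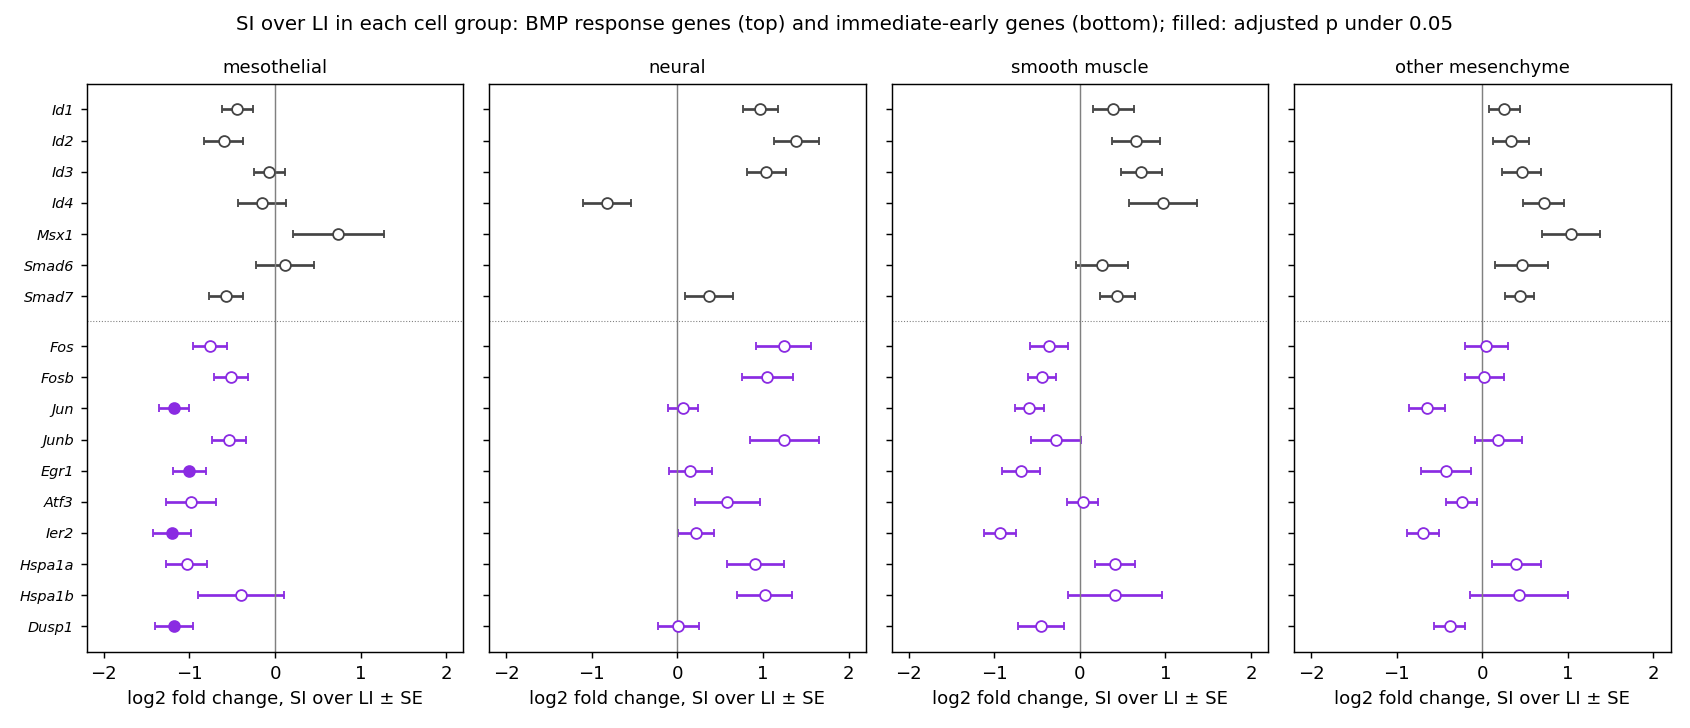
Log2 fold change of SI over LI (horizontal axis, bars: SE, 2 libraries a region) in each of the 4 cell groups for the BMP response genes that were tested (top) and for 10 immediate-early genes (bottom), filled where the adjusted p was under 0.05. In mesothelial cells Id1, Id2 and Smad7 lay left of 0 together with all 10 immediate-early genes, and in neural cells Id1, Id2 and Id3 lay right of 0 together with all 10, while Id4 lay left (-0.82). In smooth muscle cells the 6 members tested lay right of 0 (median 0.55) and 7 of the 10 immediate-early genes left (median -0.40).

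The difference between regions itself differed between cell groups, as tested by the interaction of region and group with library as a block. Against other mesenchyme, the SI to LI difference of mesothelial cells was lower for 5 of 7 members tested: Smad7 by -1.03 ± 0.16 (adjusted p = 0.000165), Id1 by -0.71 ± 0.11 (0.000177), Id2 by -0.93 ± 0.15 (0.000342), Id3 by -0.58 ± 0.15 (0.0222) and Id4 by -0.93 ± 0.26 (0.0356). The same test called 5.4% of 13144 genes, 1.92% higher and 3.48% lower. For each of the 5 the mean level was higher in LI in mesothelial cells and higher in SI in other mesenchyme. In mesothelial cells the smooth muscle markers summed to 975 and 633 CPM in LI and 455 and 566 CPM in SI, and the mesenchyme markers to 1562 and 2611 CPM in LI and 2744 and 3681 CPM in SI, and their part in the result was not tested. Id1, Id2 and Smad7 were called in each of the alternatives run for this test, with Id2 at -0.58 without LI replicate 1. Id3 gave -0.91 without LI replicate 2 and lost its call without LI replicate 1 (-0.20, adjusted p = 0.638), with DESeq2 (0.172) and with marker-based groups (0.211), and Id4 lost it without LI replicate 1 (-0.59, adjusted p = 0.411), without SI replicate 1 (-0.54, adjusted p = 0.339) and in 5 other settings. Smad6 (-0.38 ± 0.26, adjusted p = 0.491) and Msx1 (-0.31 ± 0.58, adjusted p = 0.852) were not called.

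In neural cells the interaction was positive for Id1, Id2 and Id3 and negative for Id4. The SI to LI difference exceeded that of other mesenchyme for Id2 by 1.09 ± 0.19 (adjusted p = 0.00268), for Id1 by 0.72 ± 0.099 (0.000478) and for Id3 by 0.60 ± 0.086 (0.00058), and fell short of it for Id4 by -1.51 ± 0.16 (7.47e-05). In neural cells the 13 epithelial markers summed to 9.71 and 23.3 CPM in LI and 54.1 and 66.1 CPM in SI, and their part in the result was not tested. In all, 4 of 7 members tested were called, 3 higher and 1 lower, beside 12.4% of 13292 genes, 4.79% higher and 7.63% lower. Smad7, which was low in neural cells of both regions, was not called (-0.062 ± 0.18, adjusted p = 0.878), and Msx1 (-1.70 ± 1.13, adjusted p = 0.38) was not either. Smad6, on its 0 to 17 UMIs, was not called (1.38 ± 0.74, adjusted p = 0.27), but its value ran from 0.46 to 6.63 as 1 library was left out, and it was called without SI replicate 2 (2.03, adjusted p = 0.0433). The Id4 difference was -0.75 with G1 cells only (adjusted p = 0.0497). Id2 lost its call with DESeq2 (1.14, adjusted p = 0.173). With the neurons of cluster 9 left out, Id1, Id2, Id3 and Id4 gave 0.93, 1.19, 0.82 and -1.60, all called. For smooth muscle 0 of 7 members were called (1.84% of 13424 genes were, 0.507% higher and 1.33% lower), with Id2 at an unadjusted p under 0.05 (11% of all genes) and 0 called by DESeq2 (0.849% of all genes). Without SI replicate 2, Id1, Id2 and Id3 were called in smooth muscle (0.37, 0.46 and 0.50), and without SI replicate 1, Smad7 was (-0.33, adjusted p = 0.0319).

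Immediate-early genes, which cells switch on within minutes of stimulation and during tissue dissociation, were called in the same 2 interactions. The 10 listed genes include Fos, Jun and Egr1, and also the heat shock genes Hspa1a and Hspa1b. Together they summed to 9533 and 10447 CPM in mesothelial cells of LI and to 4378 and 5680 CPM in those of SI. In other mesenchyme they summed to 6420 and 7643 CPM in LI and 4070 and 6094 CPM in SI, and in smooth muscle cells to 5463 and 6155 CPM in LI and 3474 and 3607 CPM in SI. In neural cells the order was turned, with 2096 and 2286 CPM in LI and 2458 and 3336 CPM in SI. All 10 were called lower in the mesothelial interaction (5 by DESeq2, which called 1.48% of all genes; Fos -0.81 ± 0.097, adjusted p = 7.26e-06, and Hspa1a -1.43 ± 0.18, adjusted p = 1.25e-05), and 8 of 10 higher in the neural interaction (6 by DESeq2, which called 6.09% of all genes; Fos 1.25 ± 0.12, adjusted p = 4.08e-05, and Ier2 0.95 ± 0.10, adjusted p = 8.06e-05). In the mesothelial comparison of SI with LI 4 of 10 were called lower, among them Jun (-1.18 ± 0.18, adjusted p = 0.0128) and Ier2 (-1.20 ± 0.22, adjusted p = 0.0278), which lost their calls without SI replicate 1 (Jun, adjusted p = 0.189) and without SI replicate 2 (Ier2, 0.19), and 0 of 10 in each of the other 3 groups by edgeR, with 5, 4 and 2 at an unadjusted p under 0.05 and 1 called by DESeq2 in each of neural cells, smooth muscle cells and other mesenchyme. The part of this response in the results for the BMP response genes was not tested.

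The share of cells with at least 1 UMI was measured after each cell was thinned to 3000 UMIs, which left out 101 mesothelial, 26 neural, 190 smooth muscle and 844 other mesenchyme cells with fewer. In neural cells Id2 was found in 21.7 and 32.6% of cells of LI and in 55.8 and 55.1% of cells of SI. Id1 was found in 42.5 and 50.6% of neural cells of LI and in 75.9 and 71.0% of SI, and Id3 in 62.7 and 80.5% of LI and 92.8 and 93.5% of SI. At this depth each of the 3 transcripts was found in a larger share of neural cells in both SI libraries than in both LI libraries. A share at a fixed depth cannot tell more cells with a transcript from more RNA in each cell. Unthinned, the Id2 shares were 39.6, 71.2, 88.0 and 87.8% of neural cells in both LI and then both SI libraries. For Id3 they were 90.6 ± 11.7% in LI and 98.3 ± 1.13% in SI (mean ± SD), and the regions overlapped. As a yardstick of free RNA from a single cell group, Upk3b, a mesothelial gene found in 76.1 to 89.9% of mesothelial cells at the same depth, was found in at most 0.627% of neural cells. Myh11, a smooth muscle gene, was found in at most 0.935% of them. Such shares set no bound on free RNA of Id1, Id2 and Id3, which every cell group carried.

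Smad6 was found in 0 of 212 neural cells of LI replicate 1, which allows a share of up to 1.42% of cells with a UMI at this depth and sets no limit on the cells that express it, and in 0.383, 0.940 and 0.234% of neural cells of the other 3 libraries, where Upk3b was found in 0, 0.627 and 0.234%. Unthinned, the Smad6 shares were 0, 2.27, 5.22 and 1.38% and those of Upk3b 0, 0.379, 0.920 and 0.229%. Median depth before thinning was 11107.5 to 19853 UMIs in neural cells, above that of other mesenchyme in each library. In mesothelial cells Smad6 was found in 2.98 to 7.49% of cells and Smad7 in 45.2 and 37.9% of LI and 30.2 and 27.4% of SI. In other mesenchyme Smad6 was found in 2.23 to 5.31% of cells, a range that overlapped the mesothelial one. Smad7 was found in 41.6 to 52.7% of cells of other mesenchyme and in 7.08 to 16.3% of neural cells. Id4 was found in 17.0 and 22.6% of neural cells of LI and in 13.8 and 9.11% of those of SI, against 3.99 to 7.28% in other mesenchyme. Intervals and limits on shares cover counting error only.

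**Figure D4:**
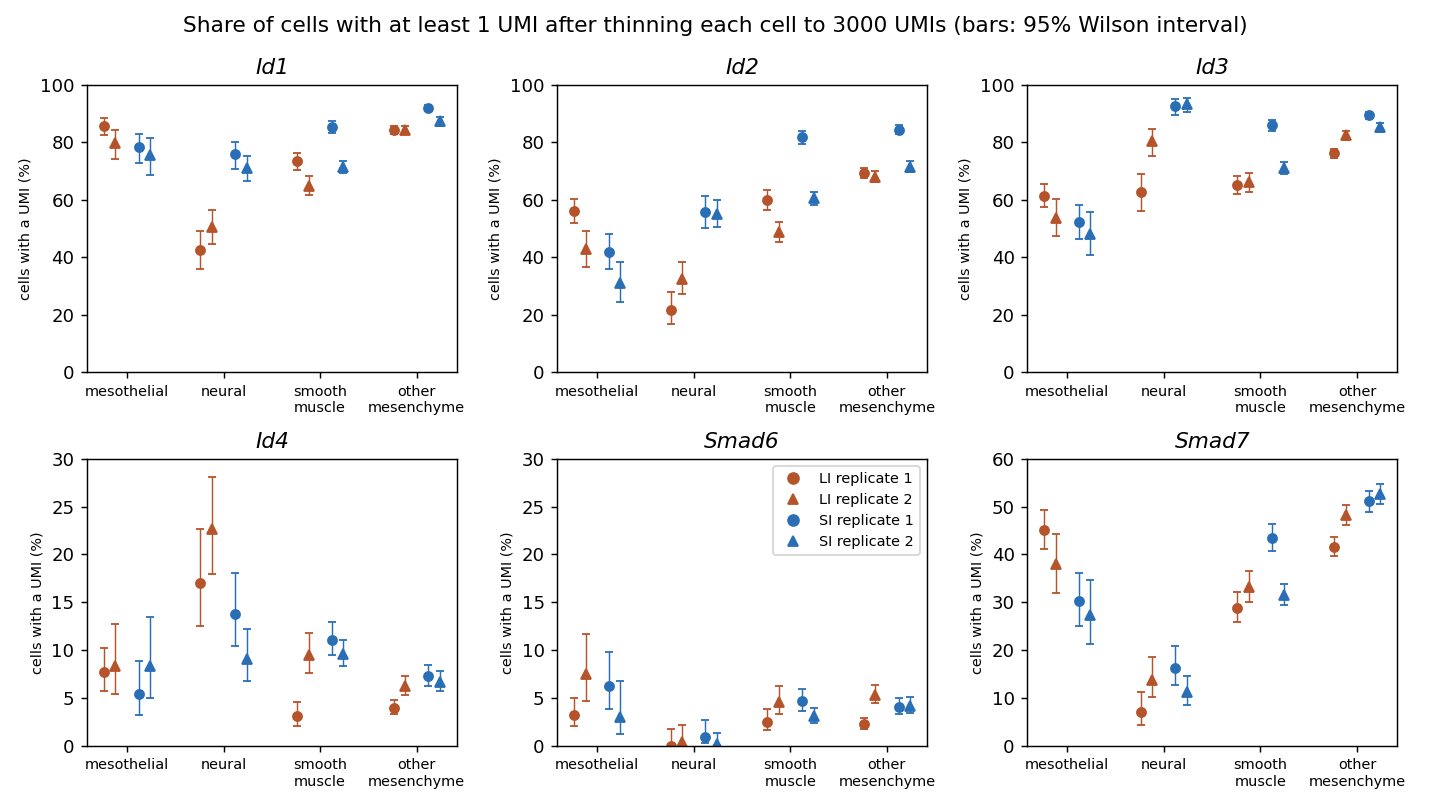
Percent of cells with at least 1 UMI of Id1, Id2, Id3, Id4, Smad6 and Smad7 after thinning to 3000 UMIs a cell, per library and cell group (bars: 95% Wilson interval, counting error only; the vertical scales differ between genes). The neural panels of Id1 and Id2 show LI (42.5 and 50.6%, 21.7 and 32.6%) below SI (75.9 and 71.0%, 55.8 and 55.1%) without overlap of intervals.

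The groups were not uniform inside. Neural cells comprised cluster 7, led by the progenitor genes Foxd3 and Sox10, and cluster 9, led by neuron genes such as Stmn2 and Tubb3, which held 20 to 25.7% of the neural cells of a library. Id1 measured 202 and 249 CPM in cluster 7 of LI and 587 and 467 CPM in that of SI, and 588, 500, 830 and 607 CPM in cluster 9 of both LI and then both SI libraries. In each library Id1 was thus higher in the neuron cluster than in the progenitor cluster, and the same held for Id2, at 185, 302, 562 and 464 CPM in cluster 9 against 69.2, 134, 284 and 311 CPM in cluster 7. Id3 did not share this order, with 515, 995, 1717 and 1951 CPM in cluster 7 and 886, 834, 925 and 1138 CPM in cluster 9. The 2 clusters also differ in cell cycle phase, with 17.2% of cells called G1 in cluster 7 and 88.3% in cluster 9. Their difference was not tested.

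Within other mesenchyme, cluster 8 (Foxd1) had the highest mean of Id3, 1564 CPM (range 768 to 2195), against 1063 CPM in cluster 0 (led by Pitx1 and Igfbp5) and 976 CPM in cluster 2 (led by histone genes of S phase). Cluster 2 made up 50.6% of other mesenchyme in SI replicate 1 and 20.3 to 27.7% in the other libraries. With equal numbers of cells of each cluster from every library, edgeR again called 0 members between SI and LI in other mesenchyme. Smad7 averaged 270 CPM in cluster 0, 224 CPM in cluster 2 and 250 CPM in cluster 8, with SDs of 43.2, 32.7 and 50.05 CPM over the 4 libraries.

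**Figure D5:**
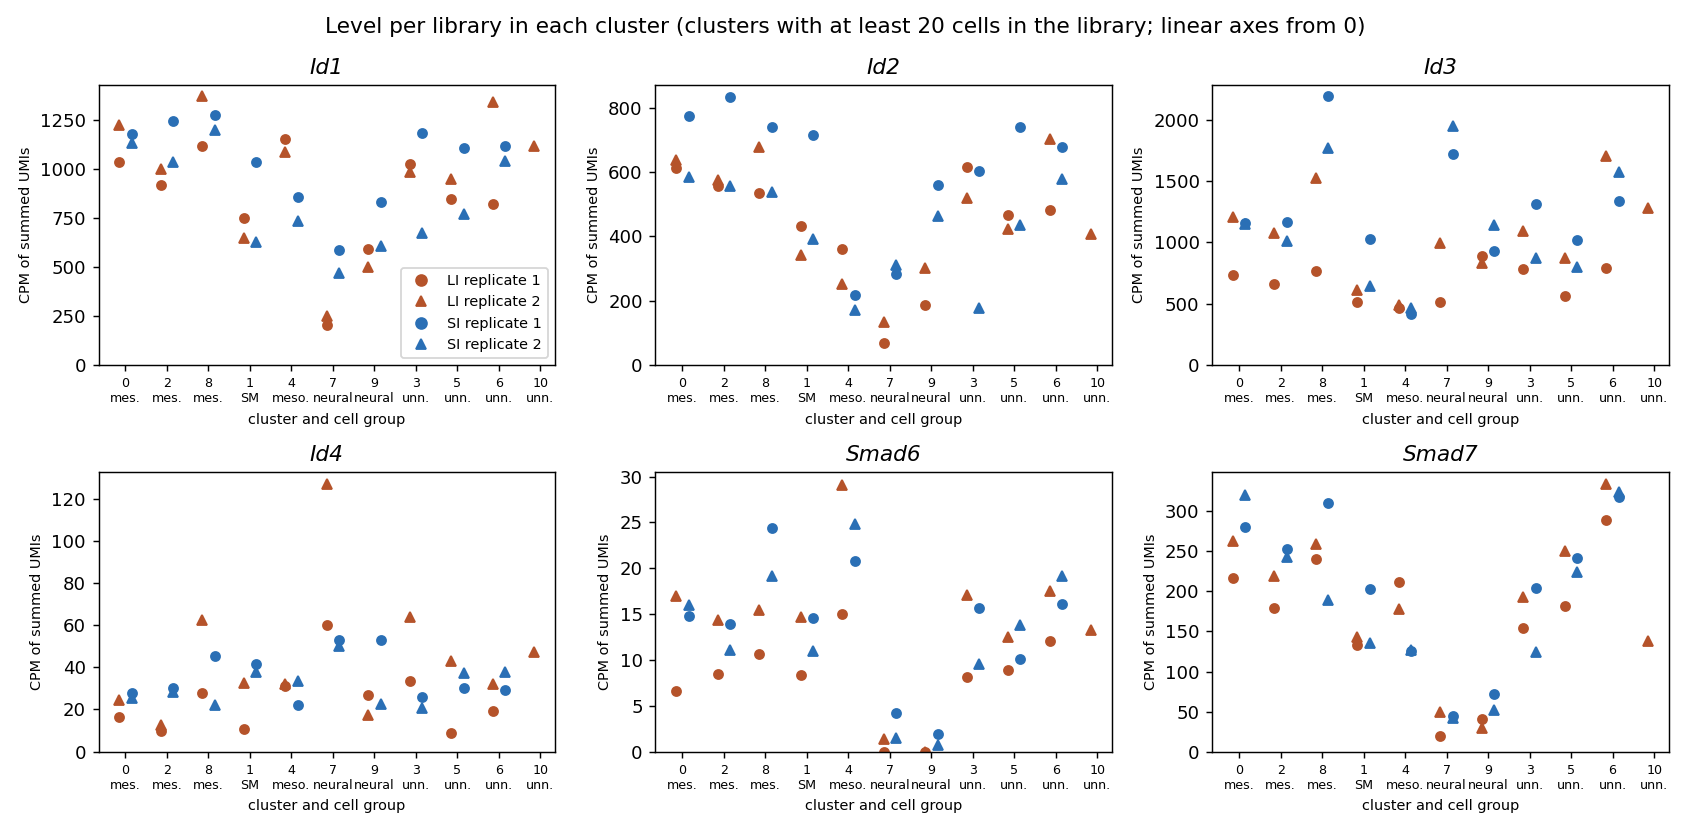
Level in CPM (linear vertical axes from 0) of 6 BMP response genes in each cluster, with a point per library for clusters with at least 20 cells in that library; mes., other mesenchyme; SM, smooth muscle; meso., mesothelial; unn., unnamed. Smad6 and Smad7 were low in both neural clusters (means of 1.7 and 38.5 CPM in cluster 7, 0.67 and 48.7 CPM in cluster 9), and Id1 and Id2 were lower in cluster 7 than in cluster 9 in each library.

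Genes from lists of BMP ligands, antagonists, receptors and signalling Smads were called in neural cells against other mesenchyme in both directions. This test called 49.2% of all genes, beside which the counts of each list stand. Of 9 BMP ligands, 6 were tested and 5 were called, 4 lower and 1 higher, with Bmp4 at 0.595 against 32.4 CPM (-5.88 ± 0.31, adjusted p = 8.76e-06) and Bmp5 at 0.34 against 22.8 CPM (-6.05 ± 0.24, adjusted p = 2.5e-06). Of 11 antagonists, which bind ligands outside the cell, 7 were called, 6 lower and 1 higher, with Fst at 6.33 against 505 CPM and Fstl1 at 43.3 against 182 CPM, both lower. Of 8 receptors 5 were called, 4 lower and 1 higher, with Acvr2a at 27.8 against 53.6 CPM (-0.90 ± 0.11, adjusted p = 0.000583) and Acvrl1 at 1.22 against 8.78 CPM. Of the signalling Smads Smad1 was higher in neural cells (0.51 ± 0.077, adjusted p = 0.00146) and Smad5 lower (-0.89 ± 0.080, adjusted p = 0.000117), among 5 of 6 called. That list also holds Smad2 and Smad3, which are not among the Smads of BMP receptors named above, and both were called.

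The helix-loop-helix factors that Id proteins act on were split in neural cells. Twist1, a mesenchymal factor, stood at 0.996 CPM against 72.0 CPM in other mesenchyme (-6.20 ± 0.16, adjusted p = 6.26e-07). Of 8 such factors 6 were called, 3 higher and 3 lower. Of 10 other BMP targets and feedback genes 9 were tested and 7 were called, 3 higher and 4 lower, with Hey1 higher (1.81 ± 0.24, adjusted p = 0.000836) and Ski, a corepressor of Smads, lower (-1.09 ± 0.097, adjusted p = 0.000111). Immediate-early genes were lower in neural cells for 9 of 10, among them Fosb (-4.14 ± 0.22) and Hspa1a (-1.62 ± 0.13). With doublets kept Bmp4, Bmp5, Fst and Twist1 gave -4.83, -4.60, -4.76 and -4.82, and with groups by markers Hey1 gave 1.10, all still called. The median log2 difference was -3.54 for the ligands, -1.09 for the antagonists, -0.23 for the receptors and -0.26 for the signalling Smads, beside -0.028 for all genes.

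In mesothelial cells, where 37.5% of all genes were called (18.7% higher), 7 of 11 antagonists were called and all 7 were higher than in other mesenchyme, with Sostdc1 at 22.5 against 0.947 CPM (4.40 ± 0.32, adjusted p = 8.94e-06) and Nbl1 at 35.5 against 10.0 CPM (1.92 ± 0.17, adjusted p = 3.42e-05). The median log2 difference of the 11 was 0.82, and that of all genes tested -0.047. Of 7 ligands tested 5 were called, 3 higher and 2 lower, with Bmp2 (2.22 ± 0.25, adjusted p = 0.000163) and Gdf6 (2.45 ± 0.38, adjusted p = 0.00103) higher, at 10.9 CPM each against 2.41 and 2.36 CPM, where Gdf6 gave 3.17 without SI replicate 1. Smad1 (-0.73 ± 0.10, adjusted p = 0.000641) and Smad5 (-0.42 ± 0.095, adjusted p = 0.00782), which carry the signal to the nucleus, were the 2 of 6 signalling Smads called, both lower. Receptors were split, 3 higher and 3 lower of 8, with Acvrl1 at 0.372 against 8.78 CPM (-4.73 ± 0.46, adjusted p = 5.82e-05; -4.03 without LI replicate 1) and Acvr2a lower (-0.71 ± 0.091, adjusted p = 0.00034). Of the other targets and feedback genes 5 of 8 tested were called, with Ski higher (0.81 ± 0.10) and Zfp423 lower (-1.54 ± 0.26), and of the helix-loop-helix factors 4 of 7 tested, all lower, with Hand1 (-0.78 ± 0.094) and Twist2 (-0.70 ± 0.10). Of the immediate-early genes 5 were higher and 3 lower, with Atf3 (2.90 ± 0.20) and Fosb (0.86 ± 0.11) the 2 of smallest adjusted p.

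In smooth muscle cells, where 19% of all genes were called against other mesenchyme, most ligands were called. Of 7 ligands tested 6 were called, 2 higher and 4 lower, while DESeq2 called 3, with Bmp5 at 31.6 against 22.8 CPM (0.51 ± 0.086, adjusted p = 0.00621) and Bmp7 at 5.38 against 10.3 CPM (-0.93 ± 0.22, adjusted p = 0.0239). Of 11 antagonists Grem1 was called, at 36.4 against 13.2 CPM (1.48 ± 0.25, adjusted p = 0.00632), a call lost with DESeq2 (adjusted p = 0.0756). Of 8 receptors 3 were called, all lower, among them Bmpr1a (-0.26 ± 0.049, adjusted p = 0.0098) and Eng (-1.48 ± 0.32, adjusted p = 0.0161), and of 6 signalling Smads 0, with 0 at an unadjusted p under 0.05 and 0 called by DESeq2. Of the other targets 2 of 9 tested were called, Skil (-0.51 ± 0.075) and Hey1 (-0.82 ± 0.24), both lower. Of 8 helix-loop-helix factors 2 were called, Tcf3 (-0.15 ± 0.038) and Hand2 (-0.26 ± 0.075), both lower. Of 12 alternatives, Hand2 lost its call in 8, Hey1 in 7, Tcf3 in 6, Eng in 4, Bmp7 in 3, Bmp5 and Bmpr1a in 2 each and Skil in 1, and DESeq2 called 0 helix-loop-helix factors. With groups by markers Tcf3 gave -0.029, Eng -0.87 and Skil -0.22, and without SI replicate 2 Hey1 gave -0.45 (adjusted p = 0.301). Of 10 immediate-early genes 5 were lower, with Dusp1 (-1.06 ± 0.14, adjusted p = 0.00232) and Jun (-0.32 ± 0.056) the 2 of smallest adjusted p. The part of that in the lower Id1, Id2 and Id3 of smooth muscle cells was not tested.

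Ligands and antagonists also differed between SI and LI in cell groups where the response genes did not pass the test. The test called 3.68% of all genes in other mesenchyme, 1.48% in smooth muscle cells, 0.958% in mesothelial cells and 0.31% in neural cells. In other mesenchyme Bmp4 was lower in SI, at 18.1 against 46.8 CPM (-1.21 ± 0.18, adjusted p = 0.00956; -0.59 and not called with groups by markers, and -0.44 and not called with clusters 3, 5 and 6 added), and Gdf6 higher, at 4.28 ± 3.42 CPM (SD, n = 2) against 0.441 ± 0.0913 CPM (3.46 ± 0.68, adjusted p = 0.0294; 2.23 without SI replicate 1 and 4.12 without SI replicate 2, called in both), among 3 of 7 ligands called, 1 higher and 2 lower. Grem1, a secreted antagonist, was higher in SI, at 22.9 against 3.45 CPM (2.91 ± 0.36, adjusted p = 0.00402; 2.11 with groups by markers), and Fst lower, at 201 against 809 CPM (-1.85 ± 0.29, adjusted p = 0.0122), among 3 of 11 antagonists called. Grem1 was also called higher in smooth muscle cells, whose markers were lower in LI than in SI in other mesenchyme (867 and 1276 against 1587 and 2246 CPM), and their part was not tested. Hey1 (1.61 ± 0.35, adjusted p = 0.0455), Zfp423 (-0.87 ± 0.19, adjusted p = 0.047) and Hand2 (0.92 ± 0.17, adjusted p = 0.0242) were called as well. Zfp423 lost its call in 5 of 15 alternatives, among them without SI replicate 1 (adjusted p = 0.195) and without SI replicate 2 (0.155), Hey1 without LI replicate 1 (0.0581), without SI replicate 2 (0.0518) and without cluster 8 (0.0668), and Hand2 without SI replicate 2 (0.0599). By edgeR 0 of 8 receptors and 0 of 6 signalling Smads were, with 0 and 1 at an unadjusted p under 0.05 and 0 called by DESeq2. In smooth muscle cells Grem1 was higher in SI (67.0 against 5.77 CPM, 3.59 ± 0.35, adjusted p = 0.00285; 4.50 without LI replicate 2) and Fst lower (128 against 769 CPM, -2.43 ± 0.33, adjusted p = 0.0126; -3.04 without SI replicate 2), among 3 of 11 antagonists called, and Twist1 was lower (-1.32 ± 0.20, adjusted p = 0.0222, and 0.0724 without SI replicate 2). In mesothelial cells Gdf6 alone of 5 ligands tested was called, higher in SI (17.8 against 4.09 CPM, 2.19 ± 0.39, adjusted p = 0.0242, lost with G1 cells only, 0.0555, and without LI replicate 1, 0.0763), and 0 of 9 antagonists tested were by edgeR, with 3 at an unadjusted p under 0.05 and 1 called by DESeq2. In neural cells edgeR called 0 of 6 receptors and 0 of 6 antagonists tested, with 2 and 3 at an unadjusted p under 0.05 and 0 called by DESeq2.

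In the mesothelial interaction Grem1 was the antagonist of smallest adjusted p (-3.31 ± 0.32, adjusted p = 2.53e-07; -2.72 without LI replicate 2), with 26.5 CPM in SI against 35.7 CPM in LI in mesothelial cells and 22.9 against 3.45 CPM in other mesenchyme. Fst (0.89 ± 0.20, adjusted p = 0.00636), Skil (-0.83 ± 0.18, adjusted p = 0.0054) and Hand2 (-0.67 ± 0.14, adjusted p = 0.00544) were called with it. In the neural interaction Bmp7 (1.49 ± 0.24, adjusted p = 0.00142), Skil (0.83 ± 0.17, adjusted p = 0.00539), Zfp423 (1.14 ± 0.28, adjusted p = 0.0181) and Hand2 (-1.04 ± 0.12, adjusted p = 0.000117) were called. In the smooth muscle interaction Nog (1.00 ± 0.15, adjusted p = 0.00702) and Twist1 (-1.05 ± 0.14, adjusted p = 0.0042) had the smallest adjusted p of the antagonists and of the helix-loop-helix factors. Several of these calls were lost in other settings. Fst gave 0.32 (adjusted p = 0.185) without SI replicate 1 and 1.42 without SI replicate 2, and Skil gave -0.50 (0.171) and Hand2 -0.59 (0.0751) in the mesothelial interaction without LI replicate 1, where DESeq2 called none of the 3 (0.848, 0.0521 and 0.157). In the neural interaction Bmp7 lost its call with G1 cells only (0.0769), and Zfp423 with G1 cells only (0.302), with DESeq2 (0.268), without LI replicate 2 (0.175) and without SI replicate 2 (0.0617). In the smooth muscle interaction Nog lost it with groups by markers (0.32, adjusted p = 0.592), with DESeq2 (0.0688) and without LI replicate 1 (0.129) or LI replicate 2 (0.204), and Twist1 without either LI library (0.136 and 0.0981). Neither edgeR nor DESeq2 called any of the 8 receptors or 6 signalling Smads in the 3 interactions, with 1, 6 and 1 receptors and 1, 0 and 0 Smads at an unadjusted p under 0.05 in the mesothelial, neural and smooth muscle interaction, as had 17.4, 25.9 and 11% of all genes. Skil, a corepressor of Smads, kept its call in the neural interaction in each alternative run, with 1.26 without LI replicate 2.

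Across the 16 sums of 4 libraries and 4 groups, likeness of pattern is given as a description, Pearson's r of log2(CPM + 1) values that share libraries, depth and cell groups. Id1 went with Smad7 (Pearson r = 0.9245), Smad6 (0.848) and Id2 (0.756), and Smad6 with Smad7 (0.868). Id3 went with none of these closely (r = -0.0315 with Id1 and -0.125 with Smad7), and Id4 ran against Id1 (-0.638) and Smad7 (-0.615). Of 6569 other genes with a mean of at least 20 CPM, those most like Id1 were Phf13 (0.912) and Sertad3 (0.895), and those most like Id2 were Dact1 (0.951) and Snai1 (0.891). Those most like Id3 were Fignl1 (0.942) and Fabp7 (0.923), a glial and progenitor gene, and those most like Smad7 were Cntln (0.969) and Tsc22d4 (0.956). Smad6 was most like Ddx50 (0.978) and Socs3 (0.973), a feedback inhibitor of cytokine signals. For Id4 they were Selt (0.8725) and Cox6a1 (0.8695), for Msx1 Siva1 (0.893) and Carnmt1 (0.859), and for Msx2, at its few UMIs, Sf3b5 (0.786) and Mgat2 (0.7635).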

How the data were processed

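Droplet single-cell RNA was measured in 4 libraries of sorted E12.5 stromal cells, 2 from the large intestine (LI) and 2 from the small intestine (SI). The deposited files hold counts of UMIs per gene and cell barcode, which the authors made with Cell Ranger 3.1.0 on build mm10, per the submitters' processing notes. Chromium 3' or 5' kits were used, and the labels do not say which kit made which library, so kit, region and replicate may not be told apart.

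Barcodes with at least 1000 genes and under 10% mitochondrial UMIs were kept, and the barcodes with the highest Scrublet scores (scanpy 1.11.5) were removed as doublets at 0.8% per 1000 cells, since the automatic threshold marked 1 to 6 per library. Libraries were integrated in Seurat 5.3.0 (2000 variable genes less the Hox genes and all listed genes, leaving 1938; cell cycle scores regressed; 30 components; Louvain resolution 0.3; 11 clusters). The rule that names a cluster was completed after the clusters were seen: at least 3 markers of a class among its 10 leading genes, and no marker of another class for other mesenchyme.

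UMIs were summed per library and cell group and tested with edgeR 4.0.16 (R 4.3.3; TMM, filterByExpr, quasi-likelihood F test, Benjamini-Hochberg over all genes tested, threshold 0.05), with library as a block between cell groups. SE is the absolute log2 fold change divided by sqrt(F). Only the edgeR and DESeq2 fits were run on simulated counts, for some of the comparisons, with a single dispersion for all genes and no library effect. Filtering of cells, clustering, naming and thinning were not part of that. CPM is a gene's UMIs in a group and library, scaled to a common total of UMIs. Shares of cells used cells thinned to 3000 UMIs.

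The members and lists were chosen with earlier results of these data known. Named genes were the 8 members, the 2 genes of smallest adjusted p among those called of each list in each comparison, and the 2 genes most like each member over the 16 sums. Some genes that this rule names are not reported here. Alternatives were RLE size factors, no filter on low counts, DESeq2 1.42.0, doublets kept, cell groups by markers, G1 cells only, each library left out, a replicate block, thinned sums, equal cells of each cluster and thinning to 2000 UMIs, and, chosen after seeing the data, clusters 3, 5 and 6 added, cluster 8 left out and neural cluster 7 alone. Gene positions are from GENCODE M21 and promoters from RefSeq, which matched 6 of the 8 members.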

Additional observations from a re-analysis of the deposited data

Results flagged for a closer look

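The SI to LI difference differed in 9 cases, each a member in 1 cell group, from that of other mesenchyme by a test of that difference (edgeR quasi-likelihood interaction test, library as a block, 4 libraries). For mesothelial cells the log2 differences were -0.71 for Id1, -0.93 for Id2, -0.58 for Id3, -0.93 for Id4 and -1.03 for Smad7, where the test called 5.4% of 13144 genes. For neural cells they were 0.72 for Id1, 1.09 for Id2, 0.60 for Id3 and -1.51 for Id4, where it called 12.4% of 13292 genes. The 10 immediate-early genes had a median of -0.79 in the mesothelial and 0.87 in the neural interaction, with 10 and 8 of them called, and their part in the members' differences was not tested.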

How the results depend on the processing

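Over 17 alternatives, 840 values of members were recomputed: 737 kept their direction and their side of the threshold, 26 lost a call, 48 gained one and 29 changed sign, of which 0 were called before or after. Between SI and LI, the count of members called, 0 in each group, became 4 in neural cells without the filter on low counts, 3 with DESeq2, and 1 with doublets kept, with G1 cells only or with thinned sums, and 3 in smooth muscle cells without the filter. Leaving out 1 library at a time gave 0 to 2 members in mesothelial cells, 0 to 4 in neural cells, 0 to 1 in smooth muscle cells and 0 to 3 in other mesenchyme, where the lone library of a region is assumed to vary like the other region. In the mesothelial interaction, with 5 called, DESeq2 and groups by markers called 3, and leaving out a library gave 3 to 5. In the smooth muscle interaction, with 0 called, 1 was called without the filter, and leaving out a library gave 0 to 3. With a replicate block, members called between SI and LI were 2 in mesothelial cells, 3 in neural cells, 3 in smooth muscle cells and 3 in other mesenchyme, and all genes called 747, 408, 1316 and 2133. Libraries of the same number deviated together (r = 0.273 to 0.464 across genes), but the labels do not say what the number marks. Over all alternatives the genes called ranged from 73 to 916 (102 as reported) in mesothelial cells, 0 to 1473 (35) in neural cells, 137 to 1316 (181) in smooth muscle cells and 348 to 2133 (499) in other mesenchyme, from 3294 to 5158 (4934), 4775 to 6673 (6546) and 1167 to 2743 (2554) for mesothelial, neural and smooth muscle cells against other mesenchyme, and from 194 to 967 (710), 810 to 2125 (1651) and 3 to 832 (247) for their interactions. Signs turned with groups by markers for Id3 between regions in mesothelial cells (0.21), Msx1 in the mesothelial interaction (0.093) and Id1 and Id3 in the smooth muscle interaction (-0.16 each), with G1 cells for Smad6 between regions in smooth muscle cells (-0.15), Id3 in neural cells against other mesenchyme (-0.17) and Smad7 in the neural (0.17) and smooth muscle (0.039) interactions, with doublets kept for Smad7 in the neural interaction (0.038), and with clusters 3, 5 and 6 added for Smad7 in the neural (0.071) and smooth muscle (0.11) interactions. With a library left out, values that turned sign ranged between regions from -0.13 to 0.011 (Id3), -0.44 to 0.14 (Id4) and -0.27 to 0.62 (Smad6) in mesothelial cells and from -0.069 to 0.74 (Smad6) in smooth muscle cells, and from -0.15 to 0.019 for Smad6 in smooth muscle cells against other mesenchyme. In the interactions they ranged from -0.71 to 0.27 (mesothelial Msx1), -3.19 to 0.43 (neural Msx1), -0.28 to 0.40 (neural Smad7), and in smooth muscle from -0.15 to 0.37 (Id1), -0.079 to 0.50 (Id3), -0.0062 to 0.93 (Id4), -0.31 to 1.43 (Msx1), -0.36 to 0.023 (Smad6) and -0.33 to 0.30 (Smad7). The cause of these changes was not tested. Depth limits Msx1, Msx2 and, in neural cells, Smad6, and LI replicate 1 had the fewest UMIs per cell.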

Other observations

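The unnamed clusters carried the response genes as well. Cluster 6, led by Wnt4 and Anxa2, had a mean Smad7 of 316 CPM (range 289 to 334 over 4 libraries) and a mean Id3 of 1351 CPM (790 to 1702). Cluster 3, led by Col14a1 and Bmp3, had a mean Smad7 of 169 CPM (124 to 204) and a mean Id1 of 965 CPM (671 to 1182). Cluster 5, with Epcam among its leading genes, had a mean Smad7 of 225 CPM (182 to 250).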
